A study of Mus musculus with 24 samples.

Results

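The 44 collagen genes measured on the arrays were taken as every gene whose symbol in the platform's probe annotation is Col, a number, a and a number, out of 22180 genes tested. Only probe sets with exactly 1 symbol were used, and where a gene had several such probe sets, the one with the highest mean of the 24 values was taken. Of the 44 genes, 11 encode fibrillar collagens, 8 encode collagens of the basement membrane and its border, and 25 encode the other kinds. Expression was measured on Affymetrix mouse arrays in cells pulled with magnetic beads from dissociated tissue through Cd144 and Cd105, surface proteins of endothelium encoded by Cdh5 and Eng. The Wnt group (8 arrays) came from medulloblastomas of mice with Blbp-Cre, a recombinase driven by a promoter of neural progenitor cells, and with the alleles Ctnnb1 +/Exon3 flox for the Wnt mediator beta-catenin, Trp53 flox/flox for a tumour suppressor and Pik3ca +/flox for a growth-signalling kinase. The Shh group (8 arrays) came from medulloblastomas of Ptch+/-; Ink4c-/- mice, which have reduced Patched, the brake on Shh signalling, and lack the cell cycle inhibitor Ink4c. The hindbrain group (8 arrays) came from adult wild type mice without tumours, and all groups had a mixed strain background. Tumour, genotype and any difference in age therefore changed together and cannot be told apart. The labels call the arrays biological replicates and do not say whether animals were pooled or how old the tumour mice were. The p-values measure the spread between these arrays.

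Collagens are proteins of 3 chains wound into a triple helix, and each gene encodes 1 kind of chain. Fibrillar collagens build the ropes of connective tissue, basement membrane collagens build the sheet on which endothelium sits, and fibril-associated, beaded and transmembrane collagens link fibrils to each other and to cells. In the brain, collagen lies mainly in the walls of blood vessels and in the meninges. Endothelium, pericytes, smooth muscle and perivascular fibroblasts all contribute to it.

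To show what lies before the start of genes that moved in these data, the 250 bases upstream of 6 members are given for genes of each class: Col1a2 and Col3a1 of the fibrils of types I and III, Col24a1 of a minor fibril, Col18a1 of the basement membrane zone, and the neighbours Col6a1 and Col6a2 of the type VI microfibril. They come from RefSeq, build GRCm38.p6, and each is printed 5′ to 3′ in the direction of its gene. Capitals mark the TATA box spelled TATAAA, the box spelled CCAAT and the GC box spelled GGGCGG, each searched on both strands, with overlapping matches counted separately. The windows lie at chr6:4505368-4505617 (plus strand, Col1a2), chr1:45311288-45311537 (plus strand, Col3a1), chr3:145292222-145292471 (plus strand, Col24a1), chr10:77166531-77166780 (minus strand, Col18a1), chr10:76726045-76726294 (minus strand, Col6a1) and chr10:76623631-76623880 (minus strand, Col6a2).
Col1a2: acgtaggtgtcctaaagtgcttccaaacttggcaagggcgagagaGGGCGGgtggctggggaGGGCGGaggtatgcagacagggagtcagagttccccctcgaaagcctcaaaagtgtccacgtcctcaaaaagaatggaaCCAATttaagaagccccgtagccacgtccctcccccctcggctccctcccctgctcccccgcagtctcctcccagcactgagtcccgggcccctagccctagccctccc
Col3a1: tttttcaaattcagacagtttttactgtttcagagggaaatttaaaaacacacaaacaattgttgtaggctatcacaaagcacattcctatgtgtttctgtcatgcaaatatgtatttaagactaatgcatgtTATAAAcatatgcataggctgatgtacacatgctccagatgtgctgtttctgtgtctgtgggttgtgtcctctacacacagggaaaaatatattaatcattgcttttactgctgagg
Col24a1: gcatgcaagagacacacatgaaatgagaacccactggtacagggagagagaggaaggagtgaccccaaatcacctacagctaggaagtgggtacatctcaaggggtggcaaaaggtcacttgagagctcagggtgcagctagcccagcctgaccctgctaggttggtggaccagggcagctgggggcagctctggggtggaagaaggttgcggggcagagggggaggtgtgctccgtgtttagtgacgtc
Col18a1: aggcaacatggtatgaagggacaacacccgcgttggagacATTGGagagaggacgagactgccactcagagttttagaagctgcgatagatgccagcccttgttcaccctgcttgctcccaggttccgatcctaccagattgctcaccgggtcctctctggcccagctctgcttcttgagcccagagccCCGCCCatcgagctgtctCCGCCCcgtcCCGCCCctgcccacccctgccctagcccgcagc
Col6a1: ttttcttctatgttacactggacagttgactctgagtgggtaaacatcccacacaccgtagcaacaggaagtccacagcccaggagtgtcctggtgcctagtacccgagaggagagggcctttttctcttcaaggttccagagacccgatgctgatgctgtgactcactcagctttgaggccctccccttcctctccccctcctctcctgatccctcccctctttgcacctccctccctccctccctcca
Col6a2: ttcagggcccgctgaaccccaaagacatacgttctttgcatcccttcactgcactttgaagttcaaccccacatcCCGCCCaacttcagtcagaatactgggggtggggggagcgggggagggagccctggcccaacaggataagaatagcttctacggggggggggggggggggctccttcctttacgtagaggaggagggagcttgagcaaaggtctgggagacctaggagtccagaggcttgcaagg
The Col1a2 window holds a CCAAT box whose first base lies 109 bases before the start and 2 GC boxes further out, at 205 and 188 bases. The Col3a1 window holds a TATAAA at 117 bases, and the Col18a1 window holds 3 GC boxes at 61, 43 and 33 bases and a CCAAT box at 210 bases. The printed Col6a2 window holds 1 GC box at 175 bases, and the windows of Col6a1 and Col24a1 hold none of these letters. Only windows that overlap no gene body are printed. Col6a2 and Col18a1 each have a second RefSeq start whose window does overlap one. That of Col6a2 holds 3 GC boxes at 67, 15 and 11 bases, and that of Col18a1 holds none of these letters. RefSeq windows were at hand for 35 of the 44 members (38 windows). Of these 38 windows, 57.9% held a GC box, 34.2% a CCAAT box and 13.2% a TATAAA. The shares were 32.7%, 33.8% and 12.4% of the 32851 windows of that table that were searched, with 1 chromosome left out. The median share of G and C was 59% in the windows of members and 52.4% in all windows searched. These matches describe the letters and say nothing about the factors that may bind them.

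The median log2 value of an array was at least 5.97 and at most 6.18, and precision is limited by there being 8 arrays in a group. As a floor served 92 probe sets against ERCC spike-in sequences, which mice lack, whose means had a 95th percentile of 5.24. By that measure 43 of the 44 members had a mean over all arrays above it, Col19a1 being the exception, as did 16499 of all 22180 genes. The sort antigens were present in every group: Cdh5 averaged 12.41 ± 0.35 in Wnt arrays, 12.89 ± 0.14 in Shh arrays and 12.82 ± 0.09 in hindbrain arrays, and Eng averaged 12.09 ± 0.31 in Wnt arrays, 12.71 ± 0.17 in Shh arrays and 12.83 ± 0.07 in hindbrain arrays. The mean of 16 endothelial markers ran from 9.40 to 10.78 in Wnt arrays, from 10.81 to 11.42 in Shh arrays and from 11.12 to 11.47 in hindbrain arrays, with Wnt arrays 8 and 1 lowest. The mean of 12 fibroblast markers ran from 8.37 to 9.03 in Wnt arrays, from 7.78 to 8.78 in Shh arrays and from 7.49 to 7.91 in hindbrain arrays. Of these markers, 6 were higher and 3 lower in Wnt than in hindbrain, and 6 higher and 2 lower in Shh than in hindbrain. In Wnt against Shh 6 were higher and 5 lower, so this mean joins opposite changes. Their log2 changes in Wnt against hindbrain ran from -1.25 for Dpt to 4.10 for Fbln1. The mean of 8 microglia and macrophage markers ran from 7.52 to 9.22 in Wnt arrays, from 7.53 to 10.09 in Shh arrays and from 10.26 to 11.29 in hindbrain arrays. Of 12 pericyte markers, 0 were higher and 7 lower in Wnt than in hindbrain arrays, 1 higher and 2 lower in Shh than in hindbrain arrays, and 0 higher and 7 lower in Wnt than in Shh arrays. Their mean ran from 8.26 to 9.95 in Wnt arrays, from 9.89 to 10.39 in Shh arrays and from 9.61 to 10.70 in hindbrain arrays. Of 6 smooth muscle markers, 1 was higher and 2 lower in Wnt than in hindbrain, 0 higher and 5 lower in Shh than in hindbrain, and 5 higher and 0 lower in Wnt than in Shh. Markers of granule neuron precursors were higher in Shh than in hindbrain arrays for 6 of 6, and lower in Wnt than in Shh for 6 of 6. Choroid plexus markers (5 measured) had means from 7.89 to 8.34 in Wnt arrays, from 5.79 to 8.29 in Shh arrays and from 6.23 to 9.72 in hindbrain arrays. In Wnt against hindbrain 2 of them were higher (Clic6 and Otx2) and 2 lower (Ttr and Kl), so this mean joins opposite changes. In Shh against hindbrain 0 were higher and 2 lower, and in Wnt against Shh 2 were higher and 0 lower. Astrocyte markers were higher for 2 of 6 in Wnt and 5 of 6 in Shh against hindbrain, and of 7 oligodendrocyte lineage markers 1 was higher and 4 lower in Wnt, and 3 higher and 3 lower in Shh, against hindbrain. The group means of all endothelial, fibroblast, pericyte, smooth muscle and microglia markers were above the ERCC level in all 3 groups, a level that most genes on these arrays pass. In such bulk samples, fewer cells of a type and less RNA per cell cannot be told apart, and this holds for every collagen gene that follows.

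Wnt arrays against hindbrain arrays showed rises in most collagen genes. The leading ones were Col12a1 and Col23a1, a fibril-surface collagen and a transmembrane collagen, at 30.1 and 10.9 times the hindbrain level, and the leading fibrillar genes were Col11a1, Col1a1 and Col5a2. All 8 basement membrane genes rose. The collagen genes that fell were Col27a1, a minor fibrillar collagen, and Col9a3 and Col22a1, both fibril-associated. In the limma fit to all genes, with a call meaning that the Benjamini-Hochberg adjusted p lay below 0.05, 29 of the 44 collagen genes were higher and 3 lower, and 12 did not pass. Among all 22180 genes, 23.2% were called higher and 22% lower. By class, 8 of 11 fibrillar, 8 of 8 basement membrane and 13 of 25 other genes were higher. The median log2 fold change was 0.78 over collagen genes, against -0.02 over all genes tested. The Wnt and hindbrain arrays did not overlap for 15 collagen genes that were higher and for 1 that was lower, beside 10.6% and 9.42% of all genes (20% in either direction). Endothelial markers moved in the same comparison, with 0 of 16 higher and 15 lower, as did fibroblast markers, with 6 of 12 higher and 3 lower. With the fibroblast marker mean as a covariate the number of higher collagen genes was 15, of which 5 fibrillar and 3 of the basement membrane. The 14 genes no longer called higher were Col1a2, Col3a1, Col5a3, Col4a2, Col4a3, Col4a4, Col4a6, Col15a1, Col6a5, Col7a1, Col8a1, Col8a2, Col14a1 and Col26a1. With the endothelial marker mean as a covariate 25 were called higher, without Col24a1, Col4a6, Col15a1 and Col6a5. Calls were lost over all genes too: 5152 were higher in the main fit, 3289 with the fibroblast covariate and 2305 with the endothelial covariate.

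**Figure D1:**
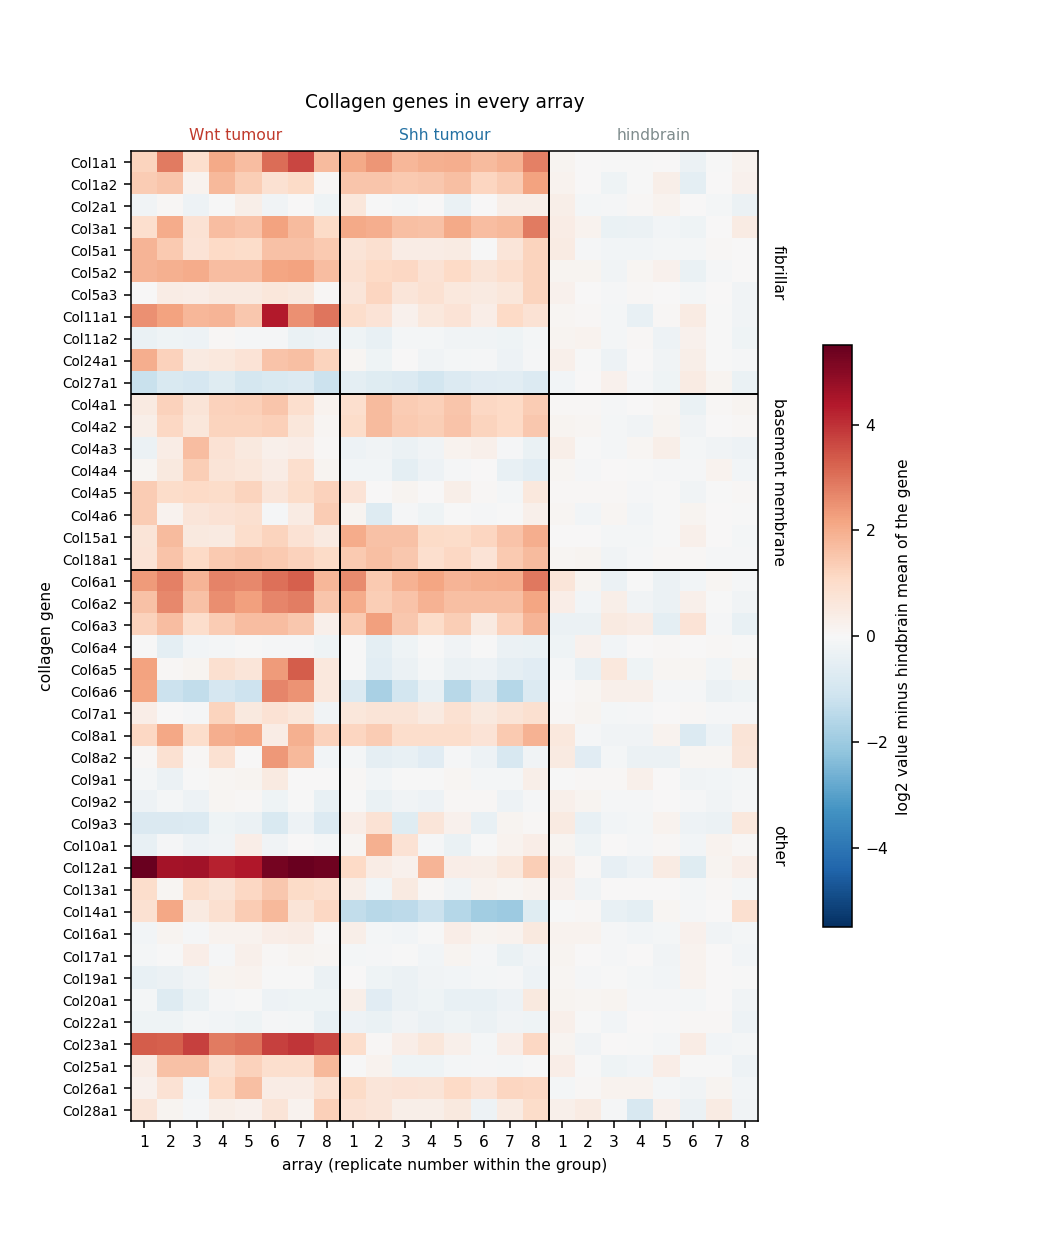
Each row is 1 of 44 collagen genes by class and each column 1 of 24 arrays, with Wnt arrays left, Shh arrays in the middle and hindbrain arrays right; colour gives the log2 value minus the mean of the hindbrain arrays for that gene. Col12a1 and Col23a1 are the darkest rows in Wnt arrays (mean differences 4.91 and 3.45), and Col14a1 is above hindbrain in Wnt arrays (1.17) and below it in Shh arrays (-1.45).

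Shh arrays against the same 8 hindbrain arrays showed rises in fibrillar and vascular basement membrane collagens. The leading rises were in Col6a1 and Col6a2 of the type VI microfibril, Col1a1 and Col1a2 of type I, Col3a1 of type III and Col15a1 of the basement membrane zone. Col14a1, which sits on fibrils of type I, fell by 1.45 on the log2 scale, and Col27a1 fell by 0.72. Of the 44 genes, 19 were called higher, 4 lower and 21 did not pass, where 18.9% of all genes were called higher and 18.9% lower. The higher genes were 7 of 11 fibrillar, 4 of 8 basement membrane and 8 of 25 other collagens, and the median log2 fold change was 0.20 over collagen genes and -0.02 over all genes. The arrays did not overlap for 14 collagen genes on the higher side and 3 on the lower side, beside 7.13% and 5.55% of all genes (12.7% in either direction). Of the fibroblast markers, 6 of 12 were higher and 2 lower here, and of the endothelial markers 1 of 16 was higher and 4 lower. With the fibroblast marker mean as a covariate 15 collagen genes were called higher, without Col11a1, Col12a1, Col23a1 and Col5a1, and with the endothelial marker mean 17, without Col11a1 and Col23a1. Over all genes, 3787 were called higher with the fibroblast covariate and 4037 with the endothelial covariate, against 4203 in the main fit. The part of either marker list in the collagen result was not tested otherwise.

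Between the tumour groups, collagens differed in kind. Col12a1, Col23a1, Col14a1 and Col11a1 were higher in Wnt than in Shh arrays, as were the 4 chains Col4a3 to Col4a6 of the less common basement membrane trimers. Col15a1, Col4a2, Col1a2, Col5a3 and Col9a3 were lower in Wnt than in Shh arrays. Of the 44 genes, 16 were called higher, 5 lower and 23 did not pass, against 18% and 17.8% of all genes. The median log2 fold change was 0.06 over collagen genes and -0.0019 over all genes. Wnt arrays lay wholly above Shh arrays for 9 collagen genes and wholly below them for 0, beside 5.8% and 4.32% of all genes (10.1% in either direction). After a shift that gives every array 1 common median, the split over all genes was 4978 higher and 3030 lower, against 3996 and 3950 in the deposited values, and that over collagen genes was 18 higher and 4 lower. Endothelial markers moved with this comparison, with 0 of 16 higher and 15 lower in Wnt than in Shh arrays. With their mean as a covariate, 13 collagen genes were called higher, Col6a2 now among them and Col5a1, Col4a6, Col6a5 and Col6a6 not, and 0 were called lower. Over all genes, 2125 were called higher and 2020 lower in that fit, so calls were lost there too.

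**Figure D2:**
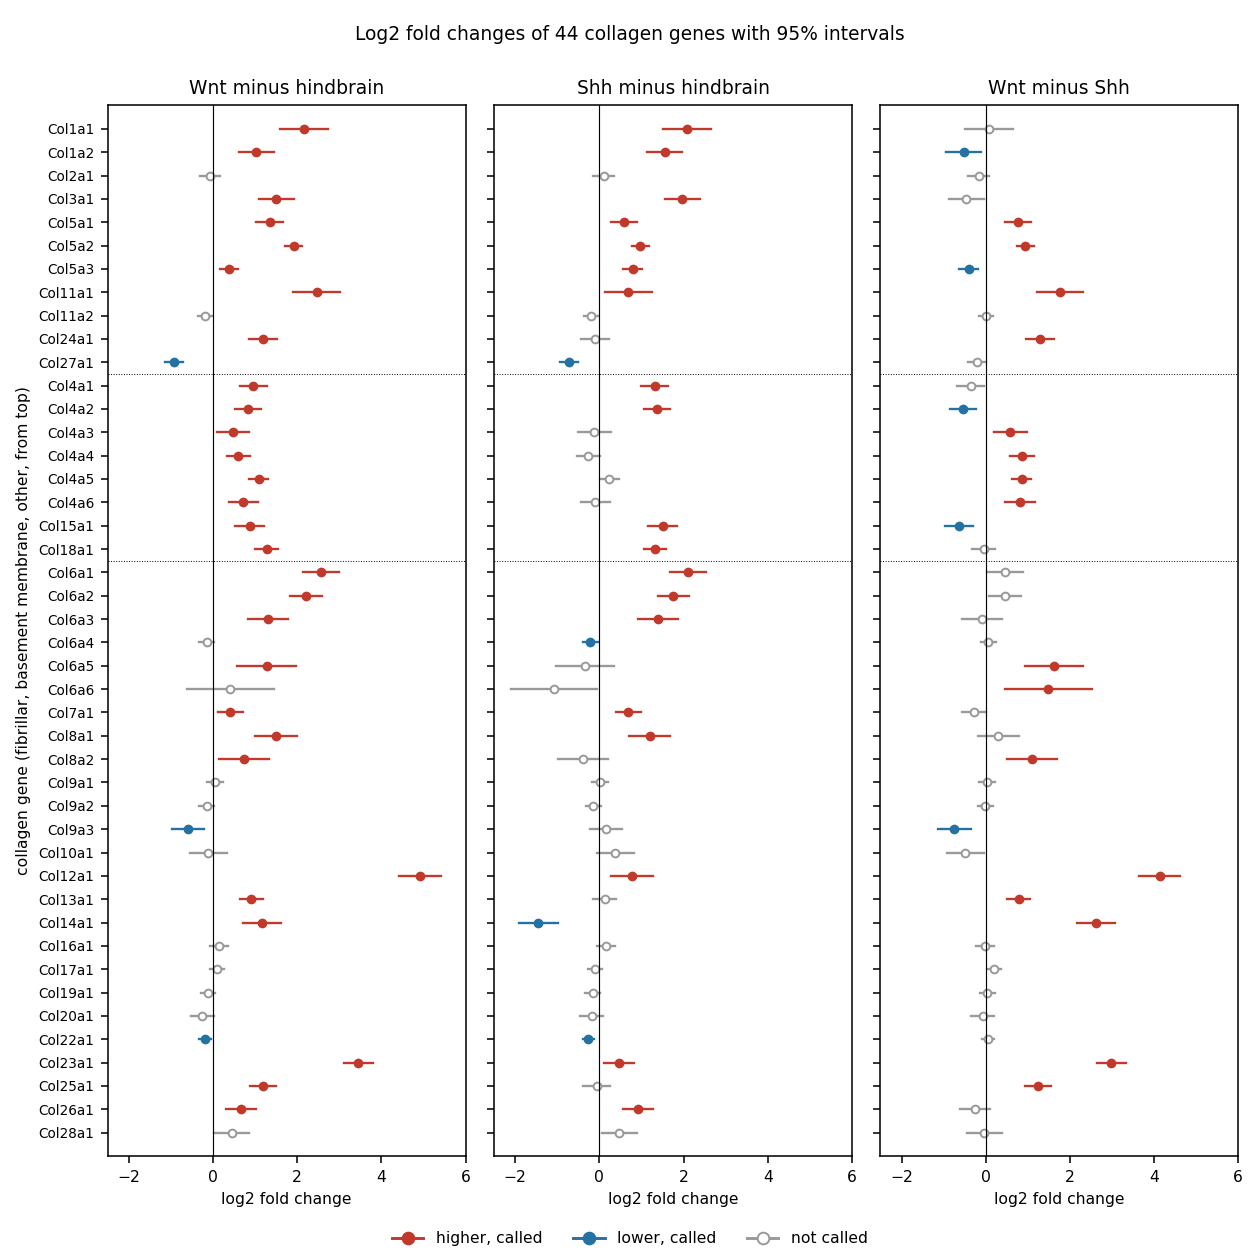
The horizontal axis is the log2 fold change with its 95% interval for each of 44 collagen genes, in panels for Wnt over hindbrain (left), Shh over hindbrain (middle) and Wnt over Shh (right); filled red is called higher, filled blue called lower, open grey not called. In the left panel 29 genes are filled red and 3 blue, in the middle panel 19 and 4, and in the right panel 16 and 5.

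Fold changes below are on the log2 scale and given ± their standard error from the fit (n = 8 arrays in each group). The levels of single collagen genes follow by class, each as the lowest, the median and the highest log2 value of the 8 arrays of a group. The first 2 comparisons of a gene share the hindbrain arrays and are set side by side without a test between them. Among the fibrillar genes, Col1a1 encodes the main chain of type I, the collagen of scars, skin and bone. It had 8.31, 9.32 and 11.05 in Wnt arrays, 9.12, 9.36 and 10.15 in Shh arrays and 7.08, 7.39 and 7.56 in hindbrain arrays. Both tumour groups lay above hindbrain without overlap, and the Wnt arrays spread widely, with array 7 highest and array 3 lowest. The log2 fold change was 2.17 ± 0.28 (adjusted p = 4.01e-07) for the Wnt group relative to hindbrain, 2.09 ± 0.28 (adjusted p = 1.66e-06) for the Shh group relative to hindbrain, and 0.07 ± 0.28 for the Wnt relative to the Shh group, whose 95% interval ran from -0.50 to 0.64. Its partner chain Col1a2 had 7.69, 8.82 and 9.42 in Wnt arrays, 8.79, 9.12 and 9.83 in Shh arrays and 7.09, 7.65 and 7.95 in hindbrain arrays. Shh arrays lay wholly above hindbrain arrays, while Wnt arrays 3 and 8 fell among the hindbrain arrays. The log2 fold change of Col1a2 was 1.03 ± 0.20 (adjusted p = 0.000154) for the Wnt group relative to hindbrain, 1.55 ± 0.20 (adjusted p = 1.41e-06) for the Shh group relative to hindbrain, and -0.53 ± 0.20 (adjusted p = 0.0453) for the Wnt relative to the Shh group. That last call was lost when any of 14 single arrays was left out (hindbrain 2, 4 or 7, Shh 1, 2, 3, 4, 5, 7 or 8, Wnt 3, 6, 7 or 8), with an adjusted p of up to 0.109 and a change between -0.63 and -0.39.

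Col3a1, the type III chain found in vessel walls, had 7.70, 8.52 and 9.11 in Wnt arrays, 8.50, 8.79 and 9.73 in Shh arrays and 6.53, 6.83 and 7.33 in hindbrain arrays. Both tumour groups lay above hindbrain without overlap, and Shh array 8 stood above the other Shh arrays. The log2 fold change was 1.51 ± 0.20 (adjusted p = 7.00e-07) for Wnt and 1.97 ± 0.20 (adjusted p = 3.28e-08) for Shh against hindbrain. Between the tumours it was -0.46 ± 0.20 (adjusted p = 0.0735), which did not pass, although it did when Wnt array 2 or 6 was left out (adjusted p down to 0.0261). With the fibroblast marker mean as a covariate the Wnt rise was 0.62 and did not pass (adjusted p = 0.106).

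Type V chains enter fibrils of type I and start their assembly. Col5a2 had 8.34, 8.56 and 8.85 in Wnt arrays, 7.35, 7.66 and 7.89 in Shh arrays and 6.27, 6.71 and 6.89 in hindbrain arrays. The 3 groups did not overlap at all, with Wnt highest, Shh between and hindbrain lowest. The log2 fold change was 1.91 ± 0.10 (adjusted p = 1.13e-13) for the Wnt group relative to hindbrain, 0.97 ± 0.10 (adjusted p = 4.74e-08) for the Shh group relative to hindbrain, and 0.94 ± 0.10 (adjusted p = 5.66e-08) for the Wnt relative to the Shh group. Col5a1 had 7.66, 8.33 and 8.79 in Wnt arrays, 6.88, 7.46 and 8.12 in Shh arrays and 6.75, 6.84 and 7.36 in hindbrain arrays, so that Wnt arrays lay wholly above hindbrain arrays while Shh arrays overlapped both. Its log2 fold change was 1.35 ± 0.15 (adjusted p = 7.28e-08) for the Wnt group relative to hindbrain, 0.58 ± 0.15 (adjusted p = 0.00401) for the Shh group relative to hindbrain, and 0.76 ± 0.15 (adjusted p = 0.00031) for the Wnt relative to the Shh group. A second, dimmer probe set of Col5a1, with a mean of 5.91, did not pass in any comparison (0.13 in Wnt against hindbrain, -0.03 in Shh against hindbrain and 0.16 in Wnt against Shh), so the probe sets of this gene disagree. Col5a3, the third type V chain, had 6.92, 7.33 and 7.49 in Wnt arrays, 7.37, 7.55 and 8.12 in Shh arrays and 6.69, 6.89 and 7.12 in hindbrain arrays. Shh arrays lay wholly above hindbrain arrays, and Wnt arrays overlapped both. The change was 0.38 ± 0.11 (adjusted p = 0.00456) for the Wnt group relative to hindbrain, 0.79 ± 0.11 (adjusted p = 2.31e-06) for the Shh group relative to hindbrain, and -0.41 ± 0.11 (adjusted p = 0.00376) for the Wnt relative to the Shh group, so that Col5a3 was lower and its partners higher in Wnt than in Shh.

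Col11a1, a chain of the type XI fibril core best known from cartilage, had 7.12, 7.99 and 10.01 in Wnt arrays, 5.85, 6.40 and 6.73 in Shh arrays and 5.21, 5.66 and 6.10 in hindbrain arrays. The Wnt arrays lay wholly above both other groups, and Wnt array 6 stood highest. Its changes were 2.46 ± 0.27 (adjusted p = 3.05e-08) for Wnt minus hindbrain and 1.77 ± 0.27 (adjusted p = 8.51e-06) for Wnt minus Shh. The smaller rise in Shh, 0.69 ± 0.27 (adjusted p = 0.0431), lost its call when any of 13 single arrays was left out (all hindbrain arrays except 6, and all Shh arrays except 3 and 6), with an adjusted p of up to 0.0796. Col24a1, a minor fibrillar collagen, had 6.22, 6.99 and 7.72 in Wnt arrays, 5.45, 5.64 and 5.83 in Shh arrays and 5.45, 5.70 and 6.04 in hindbrain arrays. Wnt arrays lay wholly above both other groups, which overlapped each other. The change was 1.19 ± 0.16 (adjusted p = 1.19e-06) for Wnt minus hindbrain and 1.29 ± 0.16 (adjusted p = 7.02e-07) for Wnt minus Shh, and -0.10 ± 0.16 (adjusted p = 0.67) for Shh minus hindbrain did not pass.

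Col27a1, another minor fibrillar collagen known from cartilage, went against its class. It had 6.98, 7.30 and 7.53 in Wnt arrays, 7.16, 7.47 and 7.63 in Shh arrays and 7.81, 8.17 and 8.63 in hindbrain arrays. Both tumour groups lay wholly below hindbrain. The changes were -0.92 ± 0.10 (adjusted p = 5.15e-08) for Wnt and -0.72 ± 0.10 (adjusted p = 5.53e-06) for Shh, and -0.20 ± 0.10 (adjusted p = 0.13) between them did not pass. Col2a1, the main cartilage collagen, and Col11a2, a type XI chain, passed in no comparison, with changes between -0.17 and 0.10 for Col2a1 and between -0.20 and -0.0015 for Col11a2. Col11a2 passed for Wnt minus hindbrain in 7 of the 24 fits that left out 1 array (hindbrain 3, 5 or 8, Shh 2, Wnt 4, 5 or 6, adjusted p down to 0.0182) and for Shh minus hindbrain without hindbrain array 5 or 8 (down to 0.0237).

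**Figure D3:**
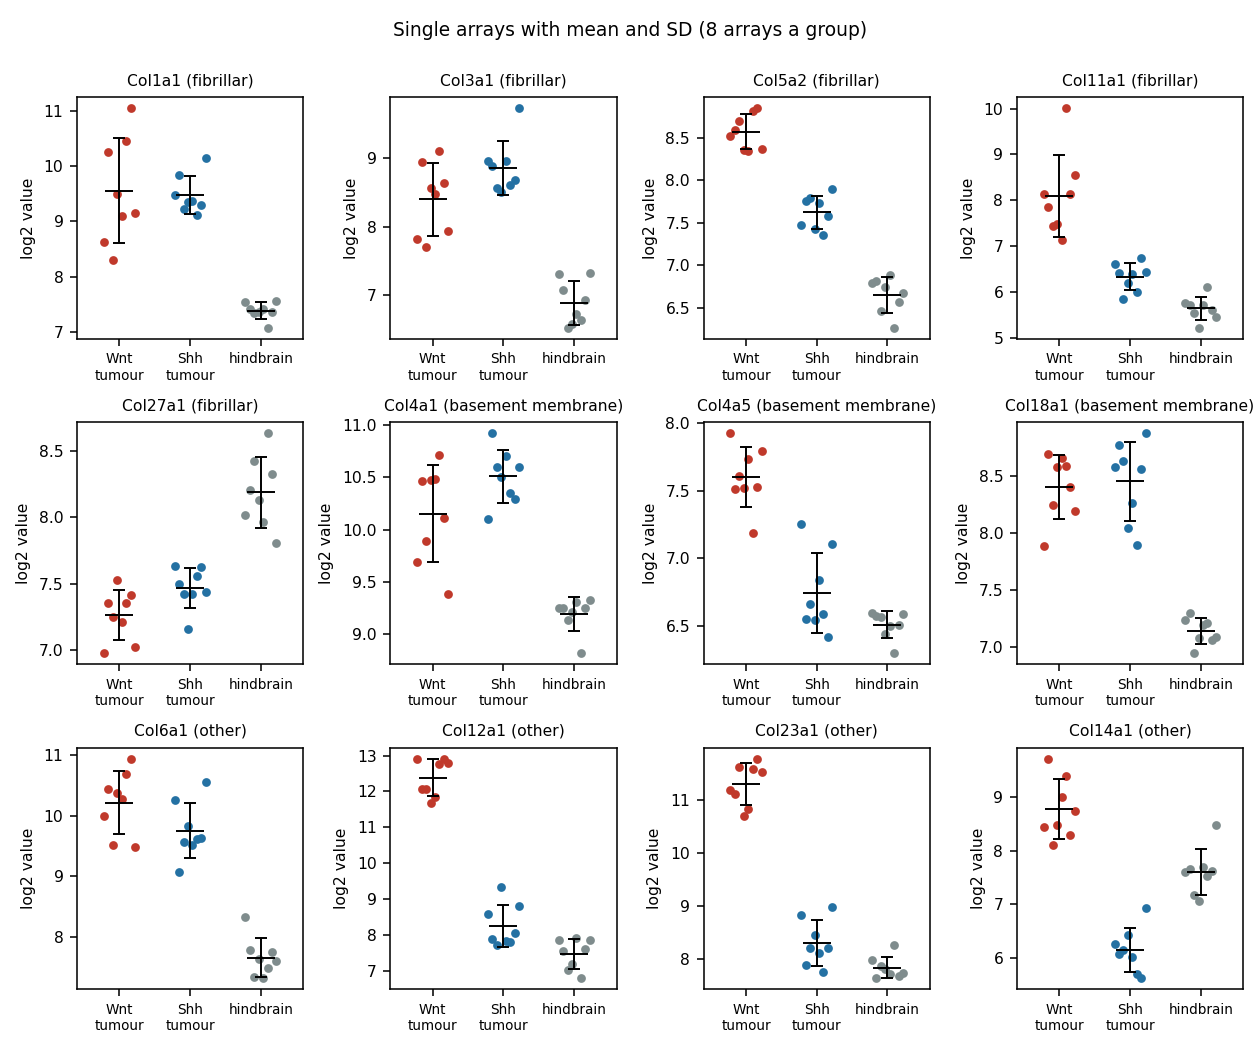
Each panel is 1 of 12 collagen genes with its log2 value on the vertical axis; points are single arrays in Wnt, Shh and hindbrain groups from left to right, and bars are the mean and SD of 8 arrays. The Col12a1 panel shows Wnt arrays between 11.69 and 12.91, Shh arrays between 7.72 and 9.34 and hindbrain arrays between 6.79 and 7.91, and the Col14a1 panel shows all Shh arrays below all hindbrain arrays.

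Among the basement membrane genes, Col4a1 and Col4a2 encode the trimer of nearly all basement membranes, including those of brain vessels. Col4a1 had 9.39, 10.28 and 10.71 in Wnt arrays, 10.10, 10.55 and 10.92 in Shh arrays and 8.82, 9.25 and 9.33 in hindbrain arrays. Both tumour groups lay wholly above hindbrain, and Wnt arrays 8 and 1 were the lowest of their group. Its changes were 0.96 ± 0.15 (adjusted p = 1.07e-05) for Wnt and 1.32 ± 0.15 (adjusted p = 2.67e-07) for Shh. Between the tumours it was -0.36 ± 0.15 (adjusted p = 0.0703) and did not pass, but it did when Shh array 1 or Wnt array 2, 4, 5 or 6 was left out (adjusted p down to 0.0232). Col4a2 had 9.24, 10.02 and 10.45 in Wnt arrays, 10.16, 10.54 and 10.86 in Shh arrays and 8.92, 9.18 and 9.30 in hindbrain arrays. Shh arrays lay wholly above hindbrain arrays, and Wnt array 8 fell among the hindbrain arrays. The change of Col4a2 was 0.82 ± 0.15 (adjusted p = 5.78e-05) for the Wnt group relative to hindbrain, 1.37 ± 0.15 (adjusted p = 1.08e-07) for the Shh group relative to hindbrain, and -0.55 ± 0.15 (adjusted p = 0.00545) for the Wnt relative to the Shh group. With the endothelial marker mean as a covariate, Wnt minus Shh was 0.14 for Col4a2 and did not pass (adjusted p = 0.616). In the RefSeq table the starts of Col4a1 and Col4a2 lie 21 bases apart on opposite strands, and their 300-base windows share 78 bases.

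Col4a3, Col4a4, Col4a5 and Col4a6 encode the chains of the specialised type IV networks of kidney, lung and some epithelia. Col4a5 had 7.19, 7.57 and 7.92 in Wnt arrays, 6.42, 6.62 and 7.25 in Shh arrays and 6.30, 6.53 and 6.59 in hindbrain arrays. Wnt arrays lay wholly above hindbrain, and Shh arrays overlapped both groups. The change in Wnt arrays was 1.09 ± 0.11 (adjusted p = 8.46e-09) against hindbrain and 0.85 ± 0.11 (adjusted p = 8.37e-07) against Shh, while Shh minus hindbrain was 0.24 ± 0.11 (adjusted p = 0.0913), which passed without Shh array 7 (adjusted p = 0.0463) and with a block by replicate number (adjusted p = 0.0233). Col4a4 had 6.01, 6.50 and 7.28 in Wnt arrays, 5.35, 5.70 and 5.95 in Shh arrays and 5.78, 5.89 and 6.11 in hindbrain arrays, with Wnt arrays wholly above Shh arrays, and its changes in Wnt arrays were 0.60 ± 0.13 (adjusted p = 0.00059) against hindbrain and 0.86 ± 0.13 (adjusted p = 1.27e-05) against Shh. Col4a6 changed in Wnt arrays by 0.72 ± 0.17 (adjusted p = 0.000913) against hindbrain and 0.81 ± 0.17 (adjusted p = 0.000403) against Shh. Col4a3 changed in Wnt arrays by 0.59 ± 0.19 (adjusted p = 0.0144) against Shh. Its change against hindbrain, 0.47 ± 0.19 (adjusted p = 0.0404), lost its call without hindbrain array 2, 3, 6, 7 or 8 or Wnt array 3, 4 or 5 (adjusted p up to 0.0849), and without Wnt array 3, the highest, it was 0.30. Against hindbrain, Shh arrays did not pass for any of these 4 chains in the fit of all groups, but Col4a4 passed in a fit of Shh and hindbrain arrays alone (-0.26, adjusted p = 0.0234).

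Col15a1 and Col18a1 encode collagens that carry sugar chains and lie at the border of the basement membrane, Col18a1 being the source of endostatin. Col18a1 had 7.88, 8.49 and 8.70 in Wnt arrays, 7.89, 8.57 and 8.88 in Shh arrays and 6.94, 7.14 and 7.30 in hindbrain arrays. Both tumour groups lay wholly above hindbrain, with changes of 1.27 ± 0.13 (adjusted p = 1.18e-08) for Wnt and 1.32 ± 0.13 (adjusted p = 2.25e-08) for Shh, and Wnt minus Shh was -0.05 ± 0.13 with a 95% interval from -0.32 to 0.22. Col15a1 had 7.79, 8.06 and 9.06 in Wnt arrays, 8.31, 8.88 and 9.32 in Shh arrays and 7.17, 7.29 and 7.59 in hindbrain arrays. It also lay above hindbrain in both tumours without overlap, and the change was 0.87 ± 0.16 (adjusted p = 9.12e-05) for the Wnt group relative to hindbrain, 1.50 ± 0.16 (adjusted p = 1.06e-07) for the Shh group relative to hindbrain, and -0.63 ± 0.16 (adjusted p = 0.00345) for the Wnt relative to the Shh group. With either marker mean as a covariate the Wnt rise of Col15a1 over hindbrain did not pass (0.85, adjusted p = 0.0528, with endothelial markers, and 0.49, adjusted p = 0.21, with fibroblast markers).

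Of the other collagens, 4 of 6 type VI genes were higher in Wnt than in hindbrain arrays with 0 lower, and 3 were higher and 1 lower in Shh than in hindbrain arrays, where 23.2% (Wnt) and 18.9% (Shh) of all genes were called higher. Type VI collagen forms beaded microfibrils around cells from the chains Col6a1, Col6a2 and Col6a3. Col6a1 had 9.48, 10.33 and 10.94 in Wnt arrays, 9.07, 9.62 and 10.55 in Shh arrays and 7.31, 7.62 and 8.33 in hindbrain arrays. Col6a2 had 8.52, 9.41 and 9.84 in Wnt arrays, 8.35, 8.67 and 9.19 in Shh arrays and 6.67, 6.92 and 7.36 in hindbrain arrays. Both genes lay above hindbrain in both tumours without overlap, and they are neighbours on chromosome 10. Col6a1 changed by 2.56 ± 0.21 (adjusted p = 2.59e-10) in Wnt and 2.10 ± 0.21 (adjusted p = 2.59e-08) in Shh, and Col6a2 by 2.21 ± 0.18 in Wnt and 1.76 ± 0.18 in Shh. A second probe set of Col6a1 gave 2.71 in Wnt and 2.31 in Shh. Wnt minus Shh was 0.46 ± 0.21 (adjusted p = 0.0905) for Col6a1 and 0.46 ± 0.18 (adjusted p = 0.0534) for Col6a2, which did not pass. Col6a1 did pass without Shh array 8 or Wnt array 3 or 8 (adjusted p down to 0.0283), and Col6a2 without Shh array 1 or 8 or Wnt array 1, 3 or 8 (down to 0.0155). Col6a3 had 7.09, 8.25 and 8.53 in Wnt arrays, 7.32, 8.20 and 9.07 in Shh arrays and 6.29, 6.62 and 7.57 in hindbrain arrays, with overlap between each pair of groups, and changed by 1.31 ± 0.23 (adjusted p = 4.62e-05) in Wnt and 1.40 ± 0.23 (adjusted p = 3.90e-05) in Shh.

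The chains Col6a4, Col6a5 and Col6a6 can take the place of Col6a3 in the microfibril. Col6a5 had 5.54, 6.24 and 8.82 in Wnt arrays, 4.86, 5.16 and 5.45 in Shh arrays and 5.05, 5.47 and 6.05 in hindbrain arrays. It changed by 1.28 ± 0.34 (adjusted p = 0.00294) for Wnt minus hindbrain and 1.62 ± 0.34 (adjusted p = 0.000451) for Wnt minus Shh, with Wnt arrays wholly above Shh arrays and 2 of 8 Shh arrays above the ERCC level of 5.24. Col6a6 had 6.43, 7.62 and 10.47 in Wnt arrays, 6.01, 6.88 and 7.40 in Shh arrays and 7.46, 7.78 and 8.09 in hindbrain arrays. Its Wnt arrays fell into separate ranges: arrays 1, 6 and 7 read 9.98, 10.47 and 10.25, array 8 read 8.38, and the other 4 lay between 6.43 and 6.85. Col6a5 was also highest in Wnt arrays 1, 6 and 7, at 7.67, 7.84 and 8.82. Col6a6 was called for Wnt minus Shh (1.49 ± 0.50, adjusted p = 0.0213), and this call was lost without Wnt array 1, 6 or 7 (1.17 at the least, adjusted p up to 0.055). All 8 Shh arrays lay below all hindbrain arrays for Col6a6, but the change of -1.08 ± 0.50 (adjusted p = 0.0937) did not pass in the fit that shares its spread with the Wnt arrays. In a fit of Shh and hindbrain arrays alone it passed (adjusted p = 9.54e-05). Col6a4 had 5.29, 5.74 and 5.79 in Wnt arrays, 5.31, 5.61 and 5.82 in Shh arrays and 5.61, 5.85 and 6.04 in hindbrain arrays. It was called lower in Shh than in hindbrain arrays, with overlap (-0.21 ± 0.08, adjusted p = 0.0483), and 18 of the 24 fits without 1 array lost this call (all arrays except hindbrain 1 and 3, Shh 1, 4 and 6 and Wnt 2, adjusted p up to 0.112).

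Fibril-associated collagens bind to the surface of fibrils, and of 9 such genes 2 were higher and 2 lower in Wnt than in hindbrain arrays, near the 23.2% and 22% of all genes, with a median change of -0.12. Col12a1 had 11.69, 12.42 and 12.91 in Wnt arrays, 7.72, 7.97 and 9.34 in Shh arrays and 6.79, 7.58 and 7.91 in hindbrain arrays. Wnt arrays lay more than 2 log2 units above every other array. The change was 4.91 ± 0.24 (adjusted p = 2.92e-14) for Wnt minus hindbrain, the 23rd largest rise of 22180 genes, and 4.13 ± 0.24 (adjusted p = 1.44e-12) for Wnt minus Shh, against 0.78 ± 0.24 (adjusted p = 0.0124) for Shh minus hindbrain. With the endothelial or the fibroblast marker mean as a covariate and in every other alternative, leaving out single arrays included, the Wnt rise of Col12a1 over hindbrain stayed between 4.28 and 5.01. The Shh rise was 0.58 with the fibroblast covariate and did not pass (adjusted p = 0.105). Col14a1, a close relative on the same fibrils, had 8.11, 8.62 and 9.71 in Wnt arrays, 5.63, 6.12 and 6.93 in Shh arrays and 7.06, 7.61 and 8.48 in hindbrain arrays. Shh arrays lay wholly below the other groups, and Wnt and hindbrain arrays overlapped through hindbrain array 8. Its changes were 1.17 ± 0.22 (adjusted p = 9.20e-05) in Wnt and -1.45 ± 0.22 (adjusted p = 1.20e-05) in Shh, a difference of 2.62 ± 0.22 (adjusted p = 9.76e-10). With the fibroblast marker mean as a covariate the Wnt rise was 0.74 and did not pass (adjusted p = 0.16).

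Of the remaining 7 fibril-associated genes, Col9a3 and Col22a1 were called in some comparison. Col9a3, a chain of type IX best known from cartilage, had 5.95, 6.04 and 6.57 in Wnt arrays, 6.12, 6.98 and 7.58 in Shh arrays and 6.39, 6.66 and 7.38 in hindbrain arrays. The groups overlapped. The change was -0.59 ± 0.19 (adjusted p = 0.0103) for Wnt minus hindbrain and -0.74 ± 0.19 (adjusted p = 0.00249) for Wnt minus Shh. Col22a1, known from the junction of muscle and tendon, had 5.72, 5.96 and 6.10 in Wnt arrays, 5.79, 5.89 and 5.98 in Shh arrays and 5.87, 6.17 and 6.42 in hindbrain arrays. It changed with overlapping groups by -0.20 ± 0.07 (adjusted p = 0.0175) in Wnt and -0.26 ± 0.07 (adjusted p = 0.00339) in Shh, and the Wnt call was lost after quantile normalization (adjusted p = 0.0992) and after a shift to the same median (0.118). Col9a1, Col9a2, Col16a1, Col19a1 and Col20a1 passed in no comparison, with changes between -0.25 for Col20a1 and 0.16 for Col16a1. With the fibroblast marker mean as a covariate, Col20a1 was called lower in Wnt than in hindbrain (-0.92, adjusted p = 0.000241), as was Col9a2 (-0.41, adjusted p = 0.0336). Col19a1 was above the ERCC level in 4 of 8 Wnt arrays, 1 of 8 Shh arrays and 6 of 8 hindbrain arrays, so it lies at that floor.

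Transmembrane collagens span the cell membrane and can be shed from it, and 3 of 4 such genes were higher in Wnt arrays than in either other group, where 23.2% of all genes were called higher against hindbrain and 18% against Shh. Col23a1 had 10.70, 11.36 and 11.78 in Wnt arrays, 7.76, 8.21 and 8.99 in Shh arrays and 7.65, 7.79 and 8.27 in hindbrain arrays. Wnt arrays lay wholly above both other groups, which overlapped. The change was 3.45 ± 0.17 (adjusted p = 3.03e-14) for Wnt minus hindbrain and 2.99 ± 0.17 (adjusted p = 9.42e-13) for Wnt minus Shh. The change in Shh, 0.46 ± 0.17 (adjusted p = 0.0342), lost its call without hindbrain array 2, 5, 7 or 8 or Shh array 1, 4 or 8 (adjusted p up to 0.0831, 0.36 without Shh array 8). Col25a1, a neuronal collagen also found in amyloid plaques, had 6.90, 7.56 and 8.26 in Wnt arrays, 6.24, 6.40 and 6.67 in Shh arrays and 6.21, 6.44 and 6.83 in hindbrain arrays. Its Wnt arrays lay wholly above both other groups, with changes of 1.18 ± 0.15 (adjusted p = 4.05e-07) against hindbrain and 1.24 ± 0.15 (adjusted p = 3.60e-07) against Shh. Col13a1, known from the neuromuscular junction, changed by 0.91 ± 0.13 (adjusted p = 2.91e-06) against hindbrain and 0.79 ± 0.13 (adjusted p = 3.90e-05) against Shh in Wnt arrays, with overlapping groups. Shh minus hindbrain passed for neither Col25a1 (-0.07 ± 0.15) nor Col13a1 (0.13 ± 0.13). Col17a1, which anchors epithelial cells, passed in no comparison, although Wnt minus Shh (0.20 ± 0.08, adjusted p = 0.0553) passed in several alternatives. These were quantile normalization (adjusted p = 0.0138), the shift to the same median (0.0125), the filter of dim genes (0.0433) and array weights (0.0366). It also passed without Wnt arrays 1 and 8 (0.048) and without Shh array 5 or Wnt array 1, 2 or 4 (down to 0.0215).

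The short-chain collagens of type VIII form networks under endothelium and in the eye. Col8a1 had 7.58, 8.77 and 9.28 in Wnt arrays, 7.91, 8.24 and 9.05 in Shh arrays and 6.42, 7.03 and 7.89 in hindbrain arrays, with Shh arrays wholly above hindbrain arrays and Wnt arrays overlapping them through Wnt array 6, which lay below hindbrain arrays 1 and 8. It changed by 1.50 ± 0.24 (adjusted p = 9.44e-06) in Wnt and 1.20 ± 0.24 (adjusted p = 0.000274) in Shh. Col8a2 was called higher in Wnt than in Shh (1.11 ± 0.29, adjusted p = 0.00358). Against hindbrain it was 0.73 ± 0.29 (adjusted p = 0.0421), a call lost with a block by replicate number (adjusted p = 0.0561) and without hindbrain array 2, 3, 4, 5, 6 or 7 or Wnt array 2, 4, 6 or 7 (up to 0.102), with 0.49 left without Wnt array 6. Col7a1, which forms anchoring fibrils, changed by 0.41 ± 0.14 (adjusted p = 0.0182) in Wnt and 0.69 ± 0.14 (adjusted p = 0.000395) in Shh, where all Shh arrays lay above all hindbrain arrays. Col26a1, described in testis and ovary, changed by 0.67 ± 0.17 (adjusted p = 0.00223) in Wnt and 0.92 ± 0.17 (adjusted p = 0.000146) in Shh. Between the tumours, Col7a1 (-0.27 ± 0.14, adjusted p = 0.139) passed without Wnt array 4 (adjusted p = 0.0109) and Col26a1 (-0.25 ± 0.17, adjusted p = 0.279) without Wnt array 5 (0.0318). Col10a1, of growing cartilage, and Col28a1, of peripheral nerve, passed in no comparison. Shh array 2 stood out in Col10a1 with 7.45, against a median of 5.65 in Shh arrays. Without Shh array 5 or Wnt array 5, Col10a1 passed for Wnt minus Shh (adjusted p down to 0.03). Col28a1 was 0.44 in Wnt and 0.48 in Shh against hindbrain, and passed in Wnt without hindbrain array 7 or Wnt array 3 (adjusted p down to 0.0477) and in Shh without hindbrain array 2 or 7, Shh array 6 or Wnt array 8 (down to 0.0202). The 10 collagen genes that passed in no comparison were Col2a1, Col11a2, Col9a1, Col9a2, Col10a1, Col16a1, Col17a1, Col19a1, Col20a1 and Col28a1.

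Most listed genes for the enzymes and other proteins that help build, fold, cut and crosslink collagen chains were called in each comparison. Of 35 listed genes, 31 were measured, and 19 were higher and 1 lower in Wnt than in hindbrain arrays, 18 higher and 6 lower in Shh than in hindbrain arrays, and 16 higher and 4 lower in Wnt than in Shh arrays. The shares called, 64.5%, 77.4% and 64.5%, stand beside 45.3%, 37.8% and 35.8% of all genes. The list medians were 0.46, 0.40 and 0.29 on the log2 scale. Bmp1, the protease that cuts the end of the procollagen chain, averaged 11.10 ± 0.17 in Wnt arrays, 10.81 ± 0.29 in Shh arrays and 8.74 ± 0.18 in hindbrain arrays. It changed by 2.36 ± 0.11 (adjusted p = 1.11e-14) in Wnt and 2.07 ± 0.11 (adjusted p = 8.19e-13) in Shh against hindbrain. Pxdn, which crosslinks type IV collagen, averaged 9.98 ± 0.40 in Wnt arrays, 9.93 ± 0.36 in Shh arrays and 7.32 ± 0.35 in hindbrain arrays. It changed by 2.67 ± 0.18 (adjusted p = 5.64e-12) in Wnt and 2.61 ± 0.18 (adjusted p = 3.68e-11) in Shh against hindbrain. Loxl1, a lysyl oxidase that crosslinks collagen and elastin, averaged 9.53 ± 0.66 in Wnt arrays, 8.11 ± 0.63 in Shh arrays and 6.65 ± 0.10 in hindbrain arrays. It changed by 2.88 ± 0.25 (adjusted p = 6.41e-10) in Wnt and 1.46 ± 0.25 (adjusted p = 4.64e-05) in Shh against hindbrain, and by 1.42 ± 0.25 (adjusted p = 5.60e-05) for Wnt minus Shh.

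The processing genes that fell follow, all of them called. Crtap, a partner of prolyl 3-hydroxylase, was the gene called lower in Wnt than in hindbrain arrays (-0.80 ± 0.12). It was also called lower in Shh than in hindbrain (-0.37 ± 0.12) and in Wnt than in Shh arrays (-0.44 ± 0.12). The 3 leading falls in Shh were Colgalt2, which adds galactose to collagen (-1.52 ± 0.25), and the prolyl hydroxylases P3h2 (-1.34 ± 0.24) and P4ha2 (-1.01 ± 0.12). Colgalt2 and P4ha2 were among the leading rises in Wnt over Shh, at 1.60 ± 0.25 and 1.47 ± 0.12. Adamts14, which trims the other end of the chain (-0.77 ± 0.21), the lysyl hydroxylase Plod1 (-0.59 ± 0.09) and Colgalt1 (-0.47 ± 0.08) led the genes lower in Wnt than in Shh.

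Receptors for collagen went both ways, and every receptor change named here was called. Of 12 listed genes, 11 were measured, with 5 higher and 4 lower in Wnt than in hindbrain arrays, 4 higher and 3 lower in Shh than in hindbrain arrays, and 2 higher and 2 lower in Wnt than in Shh arrays. The share of receptors called between the tumours, 36.4%, was near the 35.8% of all genes. Against hindbrain the shares were 81.8% in Wnt, beside 45.3% of all genes, and 63.6% in Shh, beside 37.8%. In Wnt, the rises were led by Adgrg6, an adhesion receptor for type IV collagen (1.80 ± 0.30), the integrin chain Itga2 (1.76 ± 0.21) and the receptor kinase Ddr1 (1.66 ± 0.16). In Shh they were led by Itga2 (1.56 ± 0.21), Ddr2 (1.16 ± 0.25) and Ddr1 (0.74 ± 0.16). Lair1, an inhibitory collagen receptor of leukocytes, fell in both, by 2.45 in Wnt and 2.26 in Shh on the log2 scale. Microglia and macrophage markers were lower in the same arrays, 8 of 8 in Wnt and 7 of 8 in Shh, and their part in the Lair1 result was not tested. Adgrg1, a receptor for type III collagen, fell by 1.52 in Wnt and 0.82 in Shh. Gp6, the collagen receptor of platelets, was lower than in hindbrain in both Wnt (-0.67 ± 0.10) and Shh (-0.63 ± 0.10). Itga1, another integrin chain, was lower in Wnt than in hindbrain (-1.14 ± 0.21) and than in Shh arrays (-1.60 ± 0.21). Adgrg6 (1.47 ± 0.30) and Ddr1 (0.92 ± 0.16) were higher in Wnt than in Shh, and Adgrg1 was lower (-0.70 ± 0.23).

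**Figure D4:**
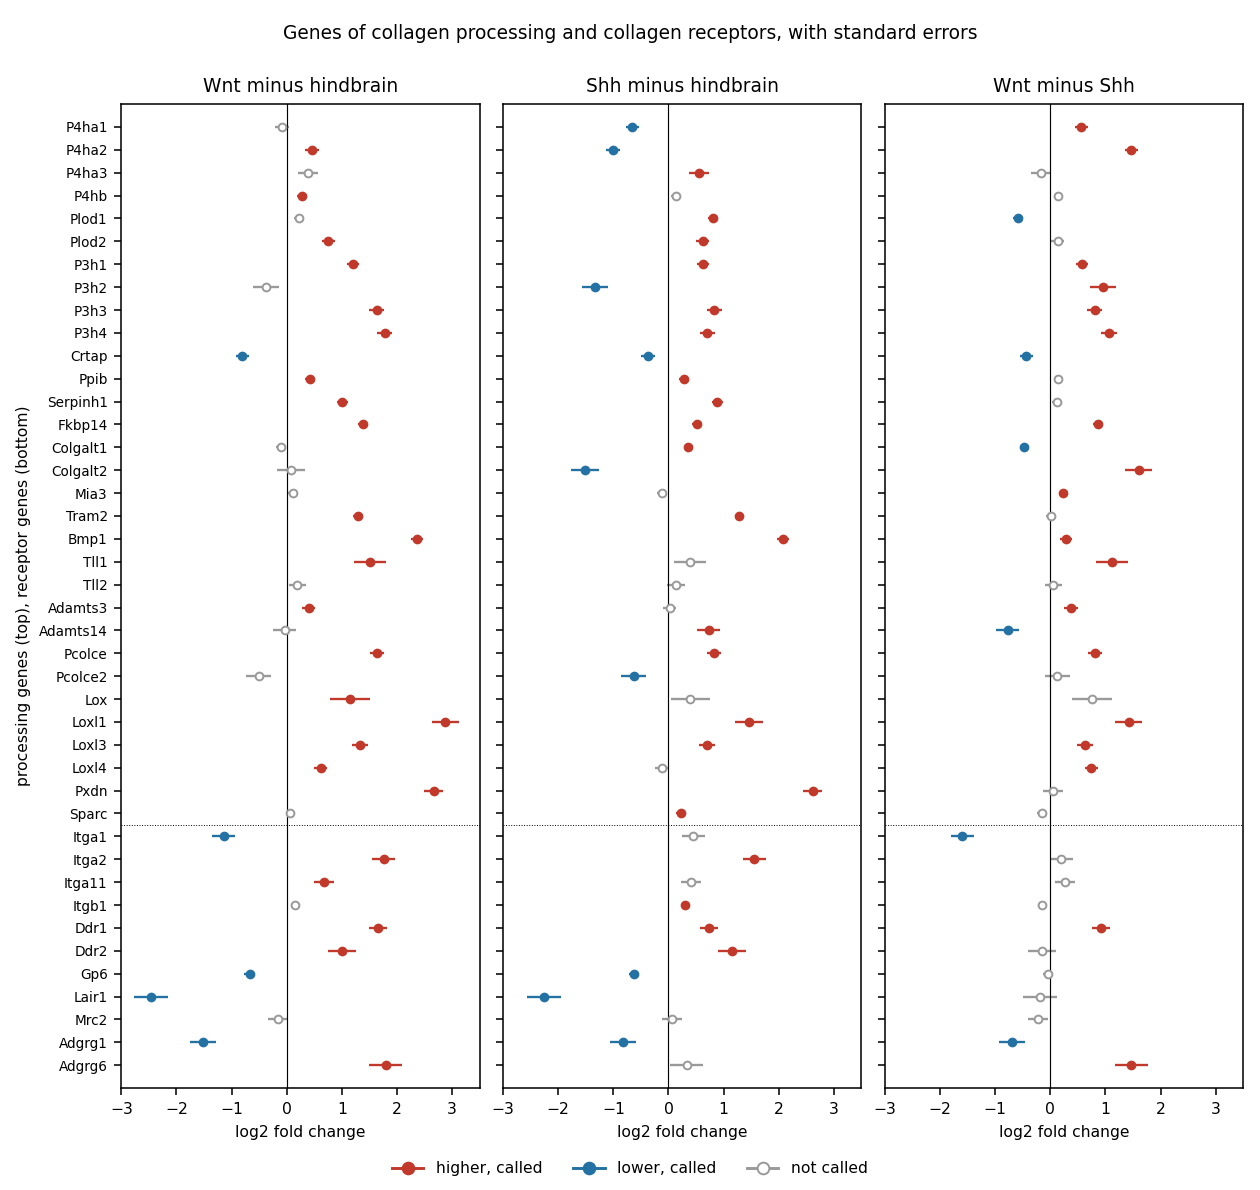
The horizontal axis is the log2 fold change with its standard error for 31 genes of collagen processing (above the dotted line) and 11 collagen receptor genes (below it), in panels for Wnt over hindbrain (left), Shh over hindbrain (middle) and Wnt over Shh (right); filled red is called higher, filled blue called lower, open grey not called. Bmp1, Pxdn and Loxl1 lie furthest right in the left panel (2.36, 2.67 and 2.88), and Lair1 lies furthest left (-2.45).

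Within the 8 Wnt arrays, Col4a1, Col4a2 and Col18a1 were correlated with the vessel markers. Pearson's r with the endothelial marker mean was 0.908 for Col4a1 (exact permutation p = 0.00203, adjusted over 18 relations 0.00915), 0.949 for Col4a2 (p = 0.000422, adjusted 0.0058) and 0.81 for Col18a1 (p = 0.0143, adjusted 0.0429). Spearman's rho was 0.881, 0.881 and 0.738 for Col4a1, Col4a2 and Col18a1 (exact permutation p = 0.00724, 0.00724 and 0.0458), and no rho passed after adjustment (lowest 0.0643). Pericyte markers gave an r of 0.878, 0.926 and 0.92 for the same genes (adjusted exact permutation p = 0.0153, 0.00915 and 0.0058). These relations rest in part on Wnt arrays 1 and 8, which were lowest in both marker means. Without these arrays, r for the 3 genes lay between 0.579 and 0.83 with endothelial markers and between 0.667 and 0.822 with pericyte markers, and the lowest exact permutation p was 0.05. The fibrillar genes did not show a passing relation: Col1a1 had r = 0.215 with endothelial markers (exact permutation p = 0.598) and 0.678 with fibroblast markers (exact permutation p = 0.0692, adjusted 0.178, with rho = 0.833, p = 0.0154, adjusted 0.0653). None of the 6 genes passed with fibroblast markers after adjustment. Over all 8 arrays Col3a1 had r = 0.56 with them (exact permutation p = 0.153, adjusted 0.275) and rho = 0.738 (p = 0.0458, adjusted 0.103). Without Wnt arrays 4 and 7, the farthest in the fibroblast mean, r was 0.837 for Col3a1 (exact permutation p = 0.0208), 0.777 for Col1a1 (exact permutation p = 0.0625) and 0.773 for Col4a1 (exact permutation p = 0.0556). The p-values without 2 arrays are given before adjustment over the 18 relations.

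**Figure D5:**
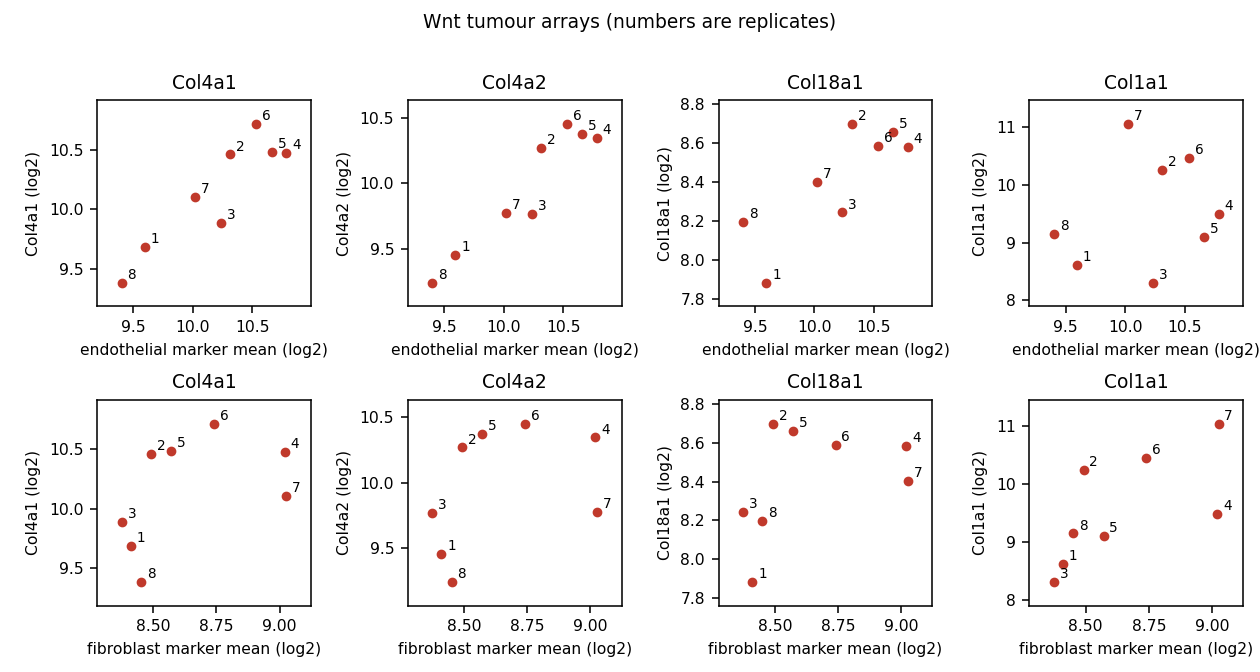
Each panel plots the log2 value of Col4a1, Col4a2, Col18a1 or Col1a1 against the mean log2 value of endothelial markers (upper row) or fibroblast markers (lower row) in the 8 Wnt arrays, numbered by replicate. Col4a1 and Col4a2 run along the endothelial mean (r = 0.908 and 0.949), with arrays 8 and 1 at the lower left, and Col1a1 does not (r = 0.215).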

How the data were processed

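Endothelial cells sorted through Cd144 and Cd105 were hybridised to Affymetrix mouse arrays, 8 per group. The authors deposited 1 log2 value per probe set and array, between 1.73 and 14.0; no source states the log base, which was taken from that range. The submitters' processing notes name Partek 6.6. How background was corrected and arrays were normalized is not given in the sources used here. From the 41345 probe sets, those with exactly 1 gene symbol (23521) were kept, 1814 with several were left out, and where a gene had several probe sets, the one with the highest overall mean was used (22180 genes). The values of all genes were fitted with limma 3.58.1 in R 4.3.3 (lmFit with 3 group means, eBayes, 21 residual degrees of freedom before moderation), and p-values were two-sided and adjusted by Benjamini-Hochberg over all 22180 genes, with calls at 0.05. The fit was also run on simulated data with independent noise and 1 spread for each gene in all groups. That run cannot show how the fit behaves where groups differ in spread, as for Col6a6 (SD 1.78 in Wnt arrays and 0.22 in hindbrain arrays). Summaries and exact permutation tests used Python 3.11.15, numpy 2.4.6, pandas 2.3.3 and scipy 1.17.1, and figures matplotlib 3.10.9.

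The collagen genes, the lists of processing and receptor genes and the cell type markers were chosen with earlier results of these data known. Every collagen gene could be named. Group levels were to be given, in each comparison and class, for the 4 called genes with the largest changes and no overlap between groups, for Col4a1 and Col4a2 and for called genes against the direction of their class; some further members are given too. Of the processing and receptor lists the 3 largest called rises and falls were named. Plod3, Fkbp10, Adamts2, Loxl2 and Itga10 were not matched to a probe set with 1 symbol. The sub-groups of the other collagens were formed after their values were seen.

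Arrays of the 3 groups share replicate numbers, but the labels do not say that a number marks a shared animal or day. The numbers were therefore not taken as pairs. Deviations from the group means of same-numbered arrays had correlations of -0.146 to 0.282. No such range was worked out for arrays of different numbers, so these values do not decide whether the numbers mark pairs. The smallest SD of the differences between 2 arrays was 0.309, so no array was a copy of another. Alternatives were the mean of a gene's probe sets, quantile normalization, a shift of every array to 1 median, a filter that drops dim genes (mean at or below the ERCC 95th percentile), a variance trend, array weights, a fit of only the 2 groups compared, a replicate block, the endothelial or fibroblast marker mean as a covariate, leaving out Wnt arrays 1 and 8, and leaving out each array in turn.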

Additional observations from a re-analysis of the deposited data

Results flagged for a closer look

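In 10 of 132 sets of 8 values (1 set for each collagen gene and group), 1 array lay so far from the nearest other that its gap exceeded the 95% limit of Dixon's test, and chance alone gives about 1 in 20 such sets. In hindbrain arrays, array 6 was lowest in Col1a1 (7.076) and Col4a1 (8.817) and highest in Col15a1 (7.591). Hindbrain array 1 was highest in Col5a1 (7.362) and Col6a1 (8.332), and hindbrain array 8 was highest in Col14a1 (8.481). In Shh arrays, array 8 was highest in Col3a1 (9.728), array 4 lowest in Col27a1 (7.157) and array 2 lowest in Col11a2 (5.861). In Wnt arrays, array 2 was lowest in Col6a4 (5.295).

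Col14a1 was the collagen gene called higher in Wnt and lower in Shh than in the same hindbrain arrays. The changes, 1.17 in Wnt and -1.45 in Shh, differed by 2.618 on the log2 scale, which is the Wnt minus Shh comparison of the limma fit (adjusted p = 9.76e-10), and all 8 Wnt arrays lay above all 8 Shh arrays.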

How the results depend on the processing

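Counts of called genes moved by more than 1.5 times mainly with a marker mean as a covariate. With fibroblast markers, the genes higher in Wnt than in hindbrain were 15 collagen genes (5 fibrillar, 3 basement membrane, 7 other) and 3 receptors, and 2 processing genes were lower. In Shh against hindbrain 2 fibrillar genes were lower, and in Wnt against Shh 8 collagen genes (3 other) and 4 receptors were lower. With endothelial markers, 1 collagen gene (0 other), 0 processing genes and 2 receptors were lower in Wnt than in hindbrain. In Wnt against Shh 0 collagen genes (0 fibrillar, 0 basement membrane, 0 other) and 1 receptor were lower, and 8 processing genes were higher. These fits reversed Col7a1 (-0.081) and Col8a2 (-0.13) for Wnt minus hindbrain with fibroblast markers and Col4a2 for Wnt minus Shh (0.14) with endothelial markers, all then not called. Over all genes, fewer were called in these fits than in the main fit. For Wnt minus hindbrain 5152 were higher and 4888 lower in the main fit. With fibroblast markers these were 3289 and 2872, and with endothelial markers 2305 and 2015. The cause of the moved counts and reversals was not tested.

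Of the lower calls for Wnt minus hindbrain, 1 was in the other class after quantile normalization, after the shift to the same median and without Wnt arrays 1 and 8, and 2 were fibrillar without dim genes and with array weights. For Shh minus hindbrain 1 basement membrane gene (Col4a4) was lower with array weights and in the fit of 2 groups. For Wnt minus Shh 1 fibrillar gene was lower after the shift to the same median, in the fit of 2 groups and without Wnt arrays 1 and 8, and 1 receptor was lower in the fit of 2 groups and without Wnt arrays 1 and 8. Leaving out 1 array in turn gave 1 to 2 lower fibrillar genes for Wnt and for Shh minus hindbrain. For Wnt minus Shh it gave 4 to 8 lower collagen genes (8 without Wnt array 5), 1 to 3 fibrillar, 1 to 3 other, and 1 to 3 receptors (1 without Wnt array 1 or 8). With the replicate block, Col8a2 in Wnt minus hindbrain (adjusted p = 0.0561) and Col6a4 in Shh minus hindbrain (0.0603) lost and Col4a5 in Shh minus hindbrain (0.0233) gained a call, and no other collagen call changed. By deviations from the group means, each array was matched to the arrays of the other 2 groups. Of the 24 arrays, 6 correlated best with an array of their own number. No chance level was worked out for this count, so it does not decide whether the numbers mark pairs. Without Wnt arrays 1 and 8, Col6a1 (0.62, adjusted p = 0.0277), Col6a2 (0.67, adjusted p = 0.00305) and Col17a1 (0.22, adjusted p = 0.048) passed for Wnt minus Shh. Col1a2 (-0.43, adjusted p = 0.094) and Col6a6 (1.17, adjusted p = 0.0883) then did not. Without the 2 Wnt arrays farthest in the marker mean, r with endothelial and pericyte markers was 0.674 and 0.667 for Col4a1, 0.83 and 0.822 for Col4a2, 0.579 and 0.789 for Col18a1, and -0.334 and -0.246 for Col1a1.

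Marker means differ between groups and include some RNA of the studied cells, so a covariate can remove part of a group difference. The fibroblast mean also joins markers that rose with markers that fell. Probe sets near the ERCC level, such as those of Col19a1 and of Col6a5 in Shh arrays, set a floor under which a fall cannot be seen. Genotype, tumour and any age difference cannot be told apart.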

Other observations

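Collagen genes that lie next to each other in the RefSeq gene order did not always share their values. Col3a1 and Col5a2 on chromosome 1, neighbours of the fibrils of types III and V, changed by 1.51 and 1.91 in Wnt and by 1.97 and 0.97 in Shh against hindbrain. Between the tumours Col3a1 was -0.46, which did not pass, and Col5a2 was 0.94. Col4a5 and Col4a6 on chromosome X were both higher in Wnt than in Shh arrays, as were Col4a3 and Col4a4 on chromosome 1. Other neighbours moved alike. Col6a1 and Col6a2 on chromosome 10 rose by 2.56 and 2.21 in Wnt and by 2.10 and 1.76 in Shh against hindbrain. Col4a1 and Col4a2 on chromosome 8 rose by 0.96 and 0.82 in Wnt and by 1.32 and 1.37 in Shh. Col9a1 and Col19a1 on chromosome 1 passed in no comparison. On chromosome 9, Col6a5 and Col6a6 were both highest in Wnt arrays 1, 6 and 7, while their neighbour Col6a4 did not pass for Wnt minus hindbrain or Wnt minus Shh. These pairs were looked at after their values were seen, and no test was made over them.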
